A study of Mus musculus with 2 samples.

Results

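The cells described here were those that the deposited annotation placed in cluster 10 of the class modEC, in single-cell RNA sequencing of digested mouse aortas. The working label of the cluster was chondrocyte-like, and its markers were Chad, Ibsp, Snorc, Cnmd, Col9a2 and Col10a1. Cluster 10 held 254 of 7917 cells once each barcode was counted once, of which 90 came from the EC-iDKO/Apoe-/- library and 164 from the Apoe-/- library. Both groups were aortas of mice lacking Apoe, which develop atherosclerosis, after 12 weeks of western diet. The EC-iDKO/Apoe-/- mice carried in addition an inducible double knockout in endothelial cells. The labels name neither the deleted genes nor the Cre driver, and give no age, sex or number of mice. There was 1 library per genotype, so no test between genotypes was possible and every difference below is a description of these libraries. The authors formed the clusters from the expression of these same cells, so cluster 10 set against another population is a description as well. The protocol names beads against CD31, an endothelial surface protein, whereas the cells are labelled as unselected, so the shares of cell types can depend on that step.

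Cartilage cells make a matrix of collagen II, IX and XI fibrils, aggrecan and its link proteins, under the control of the transcription factor SOX9. When cartilage matures toward mineralisation, its cells add collagen X, bone sialoprotein (Ibsp) and alkaline phosphatase (Alpl), genes downstream of RUNX factors. In atherosclerotic arteries of mice, cells with this programme lie in plaques, and lineage tracing has derived many of them from smooth muscle cells. Such cells pass through a modulated state with less contractile protein and more matrix, which is known for genes such as Spp1, Lum and Dcn. The deposited class name modEC points instead to an endothelial origin, which the transcripts alone cannot decide.

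The libraries differed in depth. The median cell had 769 unique molecular identifiers (UMIs, counted transcript molecules) in the EC-iDKO/Apoe-/- library and 3769.5 in the Apoe-/- library. Within cluster 10 the median was 637 UMIs and 430 genes in EC-iDKO/Apoe-/- cells, with a range of 501 to 2497 UMIs. It was 2029.5 UMIs and 1158 genes in Apoe-/- cells, with a range of 539 to 66573 UMIs. The cluster therefore rested on 66487 UMIs in EC-iDKO/Apoe-/- and 593099 in Apoe-/-. The cluster made up 1.64% (95% exact binomial interval 1.32 to 2.01) of EC-iDKO/Apoe-/- cells and 6.75% (5.79 to 7.83) of Apoe-/- cells. In cells of 1000 or more UMIs with a mitochondrial share below 10%, it was 0.563% (0.270 to 1.03) of EC-iDKO/Apoe-/- and 6.82% (5.74 to 8.03) of Apoe-/- cells. Of the modEC class, cluster 10 was 15.4% (12.5 to 18.5) in EC-iDKO/Apoe-/- and 33.1% (29.0 to 37.5) in Apoe-/-. In the authors' own clusterings at several resolutions, most cells of clusters 10 and 8 lay in a common cluster up to a resolution of 0.8 and apart at 1 and 1.4. At 0.8 that cluster held 90 of the 90 EC-iDKO/Apoe-/- cells and 163 of the 164 Apoe-/- cells of cluster 10, with 147 of 147 and 180 of 182 cells of cluster 8. Up to 0.4 it also held 227 to 308 EC-iDKO/Apoe-/- and 73 to 92 Apoe-/- cells of cluster 7. The libraries shared 5 cell barcodes. All intervals in the text cover counting error only, not differences between mice or preparations. The deleted genes, from knowledge of the line the epsins Epn1 and Epn2, rested on few UMIs. In cluster 10, Epn1 stood at 45.1 CPM (3 UMIs, interval 9.31 to 132) in EC-iDKO/Apoe-/- and 28.7 CPM (17 UMIs, 16.7 to 45.9) in Apoe-/-. Epn2 stood at 75.2 CPM (5 UMIs, 24.4 to 175) in EC-iDKO/Apoe-/- and 60.7 CPM (36 UMIs, 42.5 to 84.0) in Apoe-/-. The intervals overlap for both genes, and the counts are too few to show whether either was lower in EC-iDKO/Apoe-/- cluster 10. In endothelial cells Epn1 stood at 7.95 CPM (2 UMIs) in EC-iDKO/Apoe-/- and 33.7 CPM (9 UMIs) in Apoe-/-, and Epn2 at 99.3 CPM (25 UMIs) in EC-iDKO/Apoe-/- and 74.9 CPM (20 UMIs) in Apoe-/-. Tags from the 3' end need not lie in the deleted part.

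Most of the cartilage signal of cluster 10 came from a small number of deep cells. Levels are given as CPM: the UMIs of all cells of a population added up and divided by their total, times 1000000, and are compared within a gene only. In the Apoe-/- library, Chad, Ibsp, Snorc, Cnmd, Col9a2, Col10a1, Col2a1, Acan, Hapln1 and Sox9 together had 14460 UMIs in cluster 10. The 17 Apoe-/- cells with 5000 or more UMIs held 47.4% of all UMIs of the cluster and 90.1% of those of these 10 cartilage genes, the other 147 cells the rest. For single genes the share held by the 17 cells was 98.8% for Snorc, 97.2% for Cnmd, 92.4% for Ibsp, 92.3% for Chad, 90.8% for Col9a2 and 80.6% for Col10a1. It was 69.2% for Spp1, 32.2% for the smooth muscle actin gene Acta2 and 16.2% for the smooth muscle myosin gene Myh11. A single cell of 29147 UMIs held 4064 of the 7864 Ibsp UMIs, and the 10 cartilage genes took 18.3% of its transcripts. The limit of 5000 UMIs was chosen after the data were seen.

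The 17 deep Apoe-/- cells were of more than 1 kind. In 11 of them the contractile smooth muscle genes took 0.226% to 0.737% of UMIs and the 10 cartilage genes 0.985% to 18.3%, with a median of 4.26%. In the other 6, contractile genes took 4.10% to 8.41% and cartilage genes 0.0348% to 1.70%, with a median of 0.184%. The deepest cell, with 66573 UMIs, was among these 6 and had 0.819% cartilage and 5.59% contractile UMIs. The 11 cells held 84.9% of the cartilage UMIs of the Apoe-/- cluster and the 6 cells 5.16%, and this division was made after their values were seen. Over all cells, cartilage genes reached 1% of UMIs in 0 of 90 EC-iDKO/Apoe-/- cells, which allows a share of up to 3.33% at a limit of 3 cells of the 90, and in 30 of 164 Apoe-/- cells, among them 11 of the 17 deep cells and 19 of the 147 others. The median cell had 0% cartilage UMIs in EC-iDKO/Apoe-/-, with a highest value of 0.543%, against a median of 0.258% in Apoe-/-. Contractile genes took 5.77% of UMIs in the median EC-iDKO/Apoe-/- cell and 4.62% in the median Apoe-/- cell. In smooth muscle cells of the same libraries the medians were 7.67% and 7.32%. They were 4.99% and 5.40% in endothelial cells and 5.26% and 1.32% in macrophages, so this share alone does not mark smooth muscle. By the share of 1%, the name chondrocyte-like describes a minority of the Apoe-/- cells. The 10 genes include the 6 markers that came with the name, so they cannot test it. In the EC-iDKO/Apoe-/- library the cells are called cluster 10 only. Doublets were not removed, and their part in the deepest cells was not tested.

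**Figure D1:**
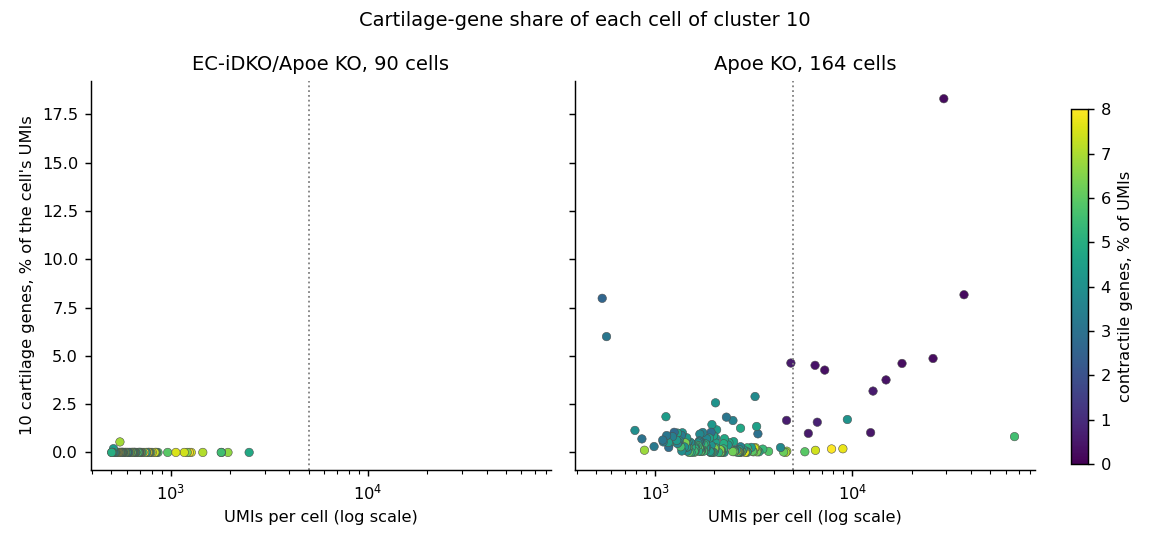
Each point is a cell of cluster 10, with its UMIs on a log axis against the percent of its UMIs in the 10 cartilage genes, coloured by the percent in contractile smooth muscle genes, EC-iDKO/Apoe-/- and Apoe-/- in separate panels. The dotted line stands at 5000 UMIs: 17 Apoe-/- cells lie beyond it, and 11 of these combine 0.985% to 18.3% cartilage with 0.226% to 0.737% contractile UMIs.

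The start regions of 4 genes that the results turn on are shown because Ibsp, Chad, Cytl1 and Spp1 were among the most enriched secreted products of the cluster but differed in how they were spread among its cells. Each line gives the 250 bases before the transcript start, from RefSeq on GRCm38.p6, with motif matches in capitals. Ibsp lies at chr5:104299037-104299286, Chad at chr11:94564797-94565046, Cytl1 at chr5:37735269-37735518 and Spp1 at chr5:104434861-104435110, all on the plus strand.
Ibsp: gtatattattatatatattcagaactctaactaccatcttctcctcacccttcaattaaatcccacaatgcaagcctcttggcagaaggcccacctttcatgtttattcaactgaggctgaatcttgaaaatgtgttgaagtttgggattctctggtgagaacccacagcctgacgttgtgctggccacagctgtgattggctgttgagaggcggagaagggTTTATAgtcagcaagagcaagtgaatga
Chad: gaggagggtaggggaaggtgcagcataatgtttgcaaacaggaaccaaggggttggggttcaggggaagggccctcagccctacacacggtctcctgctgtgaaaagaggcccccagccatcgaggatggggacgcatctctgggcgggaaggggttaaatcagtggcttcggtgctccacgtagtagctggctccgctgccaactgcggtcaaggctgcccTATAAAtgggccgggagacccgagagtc
Cytl1: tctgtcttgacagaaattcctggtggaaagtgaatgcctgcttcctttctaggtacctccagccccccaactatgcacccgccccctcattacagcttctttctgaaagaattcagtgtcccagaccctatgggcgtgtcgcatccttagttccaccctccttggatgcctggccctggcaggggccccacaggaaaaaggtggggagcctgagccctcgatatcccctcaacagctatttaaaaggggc
Spp1: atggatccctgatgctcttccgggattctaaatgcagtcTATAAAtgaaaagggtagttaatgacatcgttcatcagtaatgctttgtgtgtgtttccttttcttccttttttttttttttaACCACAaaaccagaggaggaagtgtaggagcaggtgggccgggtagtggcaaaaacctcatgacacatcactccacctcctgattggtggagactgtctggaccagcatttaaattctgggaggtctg
The motifs searched on both strands were TGTGGT for Runx factors, AACAAT for Sox factors and TATAAA for the TATA box, and no matches overlapped. A TATA match lay 28 bases before the start of Ibsp, on the minus strand letters TTTATA, and 28 bases before the start of Chad. Spp1 held the Runx letters as ACCACA 128 bases before its start and TATAAA 211 bases before it, and Cytl1 held none of the 3 motifs. A second Spp1 start in the same table, with the region chr5:104435942-104436191, held none of them either. Of 32851 mouse promoters of this length, 14.1% held the Runx letters, 9.42% the Sox letters and 12.4% the TATA letters, so single matches are common.

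The markers of the cluster were at high levels in Apoe-/- cells and close to nothing in EC-iDKO/Apoe-/- cells of the same cluster. Ibsp, the bone sialoprotein gene, stood at 15.0 CPM in EC-iDKO/Apoe-/- cells (1 UMI) and at 13259 CPM in Apoe-/- cells (7864 UMIs). Within Apoe-/-, Ibsp was at 25862.5 CPM in the 17 deep cells and 1904 CPM in the 147 others. The deep cells were thus far above the others in Ibsp, and the others still above Apoe-/- smooth muscle cells, at 62.6 CPM. Chad, a leucine-rich matrix protein of cartilage, had 0 UMIs in EC-iDKO/Apoe-/- cells and stood at 2355 CPM in Apoe-/- cells, 4586 CPM in the deep ones and 346 CPM in the others. Snorc, a small membrane proteoglycan of chondrocytes, had 0 UMIs in EC-iDKO/Apoe-/- and 435 CPM in Apoe-/-, where the deep cells stood at 907 CPM and the others at 9.62 CPM. Cnmd, the gene of the vessel growth inhibitor chondromodulin, stood at 15.0 CPM in EC-iDKO/Apoe-/- (1 UMI) and 121 CPM in Apoe-/-. The collagen genes Col9a2 and Col10a1 had 0 UMIs in EC-iDKO/Apoe-/- and stood at 110 and 113 CPM in Apoe-/-. In the 147 shallower Apoe-/- cells, Ibsp had 594 UMIs in 102 cells and Chad 108 UMIs in 46 cells. The other 4 markers rested on few UMIs there: Snorc had 3, Cnmd 2, Col9a2 6 and Col10a1 13, of which 9 were in 1 cell. With the single Apoe-/- cell of most cartilage UMIs left out, Ibsp stood at 6738 CPM and Chad at 1442 CPM over the remaining Apoe-/- cells.

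Other genes of cartilage followed the same order, while Mgp and Acta2 did not. Col2a1, the main fibril collagen of cartilage, stood at 15.0 CPM (1 UMI) in EC-iDKO/Apoe-/- cells and 5901 CPM in Apoe-/- cells, with 11106 CPM in the deep cells and 1212 CPM in the others. Acan, the core protein of aggrecan, had 0 UMIs in EC-iDKO/Apoe-/- and 1292 CPM in Apoe-/-, with 1921 and 724 CPM in deep and other cells, a flatter spread than that of Ibsp. The regulator Sox9 had 0 UMIs in EC-iDKO/Apoe-/- and 416 CPM in Apoe-/-. Cytl1, a small secreted protein also known from cartilage, was detected in both, at 346 CPM in EC-iDKO/Apoe-/- and 4036 CPM in Apoe-/-. Spp1, the gene of osteopontin, a secreted phosphoprotein that binds mineral and integrins, stood at 2692 CPM in EC-iDKO/Apoe-/- and 7292 CPM in Apoe-/-, and was also high in macrophages, at 1577 and 5203 CPM. Mgp, an inhibitor of calcification, was high throughout, at 22561 CPM in EC-iDKO/Apoe-/- and 11403 CPM in Apoe-/-, with 11679 CPM in the deep and 11154 CPM in the other Apoe-/- cells. Sparc, a collagen-binding matrix protein, stood at 2452 CPM in EC-iDKO/Apoe-/- and 38343 CPM in Apoe-/-, where the deep cells reached 71604 CPM and the others 8375 CPM. The contractile gene Acta2 ran the other way, at 18184 CPM in EC-iDKO/Apoe-/- and 11076 CPM in Apoe-/-, with 7513 CPM in deep and 14285 CPM in other Apoe-/- cells.

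**Figure D2:**
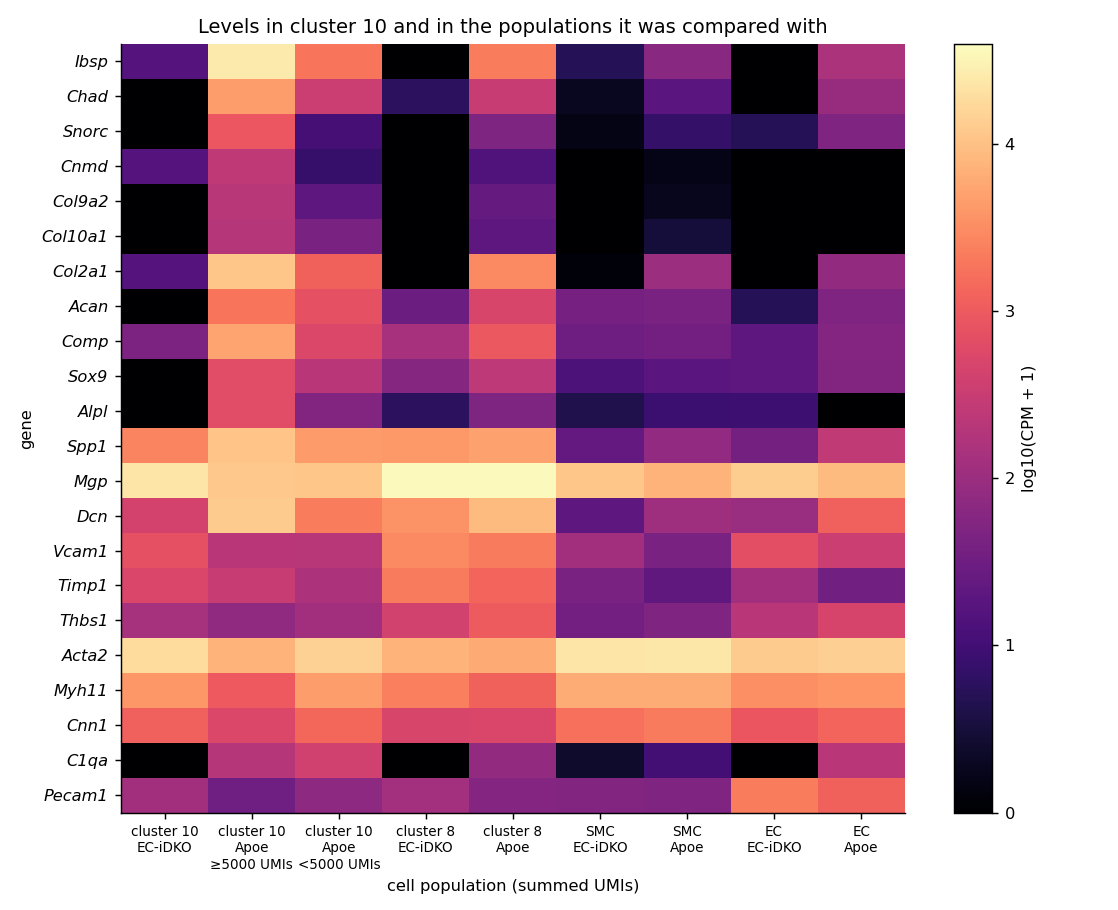
Heatmap of log10(CPM + 1) for cluster 10 markers and related genes (rows) in the populations of each library (columns), where EC-iDKO stands for EC-iDKO/Apoe-/-. Apoe-/- cluster 10 is shown divided at 5000 UMIs, and paler colours are higher levels. Ibsp is paler in the deep Apoe-/- cells of cluster 10 than in Apoe-/- cluster 8 (2284 CPM). In the other Apoe-/- cells of cluster 10 it is slightly darker (1904 CPM), while Mgp and Acta2 are high in every column.

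Cartilage transcripts of the Apoe-/- library were not confined to cluster 10. Cluster 10 held 64.8% of all Ibsp UMIs of that library, 67.2% of Chad, 50.2% of Cytl1, 37.7% of Col2a1 and 24.5% of Spp1. Cluster 8 of the same class held 49.0% of Col2a1 and 43.5% of Spp1, more than cluster 10. Ibsp made up 69.2% (68.3 to 70.0) of the UMIs of Ibsp and Col2a1 together in Apoe-/- cluster 10, and 55.7% (54.5 to 56.9) without the cell of most cartilage UMIs. The share was 43.3% (42.2 to 44.4) in cluster 8, 37.3% (34.8 to 39.8) in smooth muscle cells and 26.8% (21.4 to 32.8) in macrophages, below cluster 10 either way. On fewer UMIs it was 64.5% (51.3 to 76.3) in endothelial cells and 67.9% (53.7 to 80.1) in cluster 7, intervals that overlap those of cluster 10. Within cluster 10 it was 70.0% in the deep cells and 61.1% in the others. Over the whole libraries, Ibsp had 23 UMIs in EC-iDKO/Apoe-/- and 12130 in Apoe-/-, and Col2a1 had 2 and 9290. Acan had 237 UMIs in EC-iDKO/Apoe-/-, of which 207 were in smooth muscle cells, and 1988 in Apoe-/-. Its level in smooth muscle cells was 37.8 CPM in EC-iDKO/Apoe-/- and 41.3 CPM in Apoe-/-, whereas Ibsp stood at 4.01 and 62.6 CPM there.

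To compare cells of unequal depth, each cell was reduced at random to 500 UMIs, a number that every cell of cluster 10 reached. At this depth, Ibsp was detected in 1.11% of EC-iDKO/Apoe-/- and 48.8% of Apoe-/- cells of cluster 10, against 1.11% and 72.0% before the reduction. The same share in Apoe-/- macrophages, which do not make bone sialoprotein, was 7.64%, which serves as the background share. Chad was detected in 0% of EC-iDKO/Apoe-/- and 20.1% of Apoe-/- cells, with 0.694% in Apoe-/- macrophages. Col2a1 was detected in 1.11% of EC-iDKO/Apoe-/- and 30.5% of Apoe-/- cells, with 9.72% in Apoe-/- macrophages. Acan was detected in 0% of EC-iDKO/Apoe-/- and 21.3% of Apoe-/- cells, with 3.47% in Apoe-/- macrophages. All 4 shares in Apoe-/- cluster 10 were above those in macrophages. Cytl1 was detected in 13.3% of EC-iDKO/Apoe-/- and 40.9% of Apoe-/- cells, below the 74.1% of EC-iDKO/Apoe-/- endothelial cells and close to the 43.8% of Apoe-/- endothelial cells. Spp1 was found in most cells of both, 77.8% of EC-iDKO/Apoe-/- and 73.8% of Apoe-/- cells. In the other populations of EC-iDKO/Apoe-/-, Spp1 was found in 32.2% of cluster 8 cells, 43.4% of macrophages and 1.06% of smooth muscle cells. In those of Apoe-/- it was found in 47.8%, 39.6% and 5.41%, in the same order of populations. By level, however, Spp1 was higher in cluster 8 than in cluster 10 of EC-iDKO/Apoe-/-, at 864 of 203822 UMIs against 179 of 66487. Cluster 8 held 64.9% of the Spp1 UMIs of that library and cluster 10 13.4%.

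At least 3 UMIs of the 10 cartilage genes were present, at 500 UMIs per cell, in 1.11% (0.0281 to 6.04) of EC-iDKO/Apoe-/- and 37.8% (30.4 to 45.7) of Apoe-/- cells of cluster 10. In Apoe-/- the share was 19.2% in cluster 8, 4.17% in macrophages, 3.13% in endothelial cells and 0.923% in smooth muscle cells. The cartilage signal of the Apoe-/- cluster was therefore wider than its deep cells, although most cells held little of it. Mgp was detected in 100% of EC-iDKO/Apoe-/- and 97.0% of Apoe-/- cells of cluster 10, against 56.3% of Apoe-/- macrophages. Acta2 was detected in 100% of EC-iDKO/Apoe-/- and 92.7% of Apoe-/- cells, but also in 92.5% and 77.1% of macrophages, which do not make smooth muscle actin, so its detection in single cells is near background here.

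**Figure D3:**
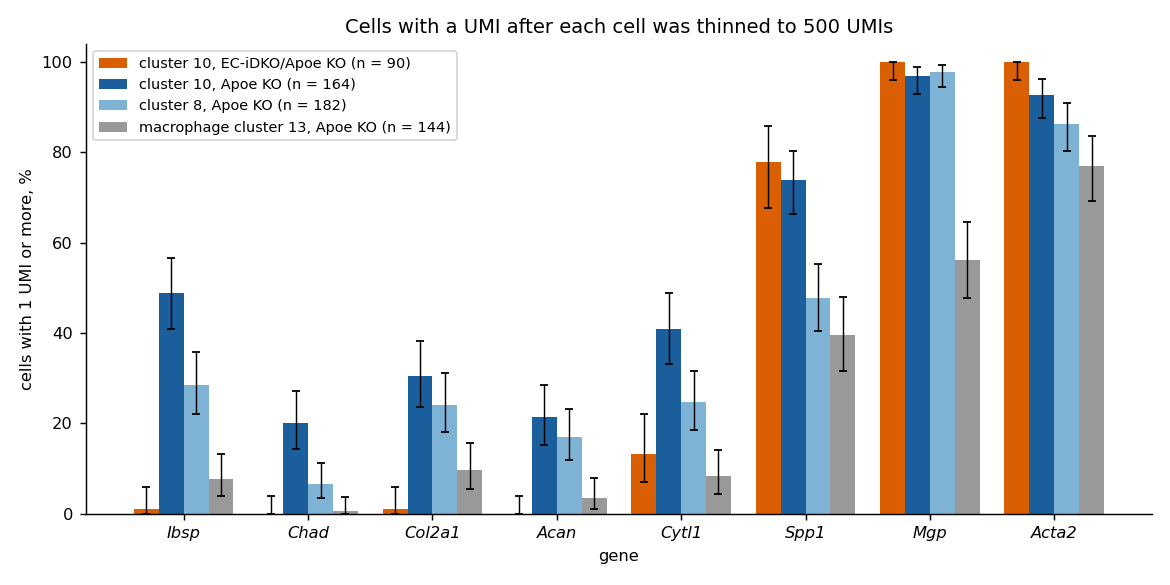
Percent of cells with at least 1 UMI of each gene after every cell was reduced to 500 UMIs, by population, with EC-iDKO/Apoe-/- left of Apoe-/- and exact 95% binomial intervals as error bars. Ibsp, Chad, Col2a1 and Acan are found in 20.1% to 48.8% of Apoe-/- cells of cluster 10 and in at most 1.11% of EC-iDKO/Apoe-/- cells, while Spp1 is found in most cells of both.

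Set against smooth muscle cells of the same library, Apoe-/- cluster 10 was higher in cartilage, mineral-related and modulated-state genes and lower in contractile genes. Genes were called by a rule of size, a CPM ratio of 1.5 or more, up or down, whose 95% interval excluded 1. Of 11319 genes with at least 20 UMIs, 7.25% were higher and 8.16% lower in cluster 10, and the median log2 ratio over all genes was -0.13. With every ratio divided by the median ratio, 1120 genes were higher and 476 lower. Without the 17 deep cells, 7.08% were higher and 2.63% lower of 11226 genes (median 0.08), and 476 of the 795 genes then called higher were among the 821 called with all cells. For the lower direction the counts were 924 with all cells and 295 without the deep cells, with 219 shared. All 6 markers were higher with all cells (median log2 ratio 7.06), and 3 of 4 measured without the deep cells (median 4.30).

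Among the matrix genes, Ibsp was 212-fold higher (194 to 232) in Apoe-/- cluster 10 than in smooth muscle cells, and 30.4-fold without the deep cells. Chad was 134-fold higher (113 to 159) and 19.6-fold without them. Col11a1, a chain of the cartilage fibril collagen XI, was 136-fold higher (82.3 to 239). All 11 measured cartilage collagen genes were higher (median log2 ratio 5.29), and 9 of 10 without the deep cells (median 2.90). Col2a1 was 56.0-fold higher and 11.5-fold without the deep cells. Of 19 cartilage matrix proteins, 15 were higher and 0 lower (median 5.57). They included Comp, which crosslinks collagen fibrils, at 79.9-fold, and Acan at 31.2-fold, which were 15.3-fold and 17.5-fold without the deep cells. Snorc, 71.6-fold higher with all cells, was 1.58-fold without them and no longer called. Ucma, a secreted protein of young cartilage, had a ratio of 426 (113 to 3600) that rests on 2 smooth muscle UMIs. Of 10 small leucine-rich proteoglycans, which coat collagen fibrils, 8 were higher and 1 lower (median 3.62). Fmod was 52.3-fold, Dcn 67.1-fold and Lum 31.2-fold higher, and Ogn was 2.04-fold lower.

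Genes that promote and genes that inhibit mineralisation were both counted. Of 19 genes known to promote mineralisation, 13 were higher and 2 lower in Apoe-/- cluster 10 (median log2 ratio 2.59). Spp1 was 92.2-fold higher (85.1 to 100) and 54.0-fold without the deep cells. Alpl, the phosphatase that frees phosphate for mineral, was 44.7-fold higher and 6.86-fold without them. Of 12 inhibitors, 7 were higher and 1 lower (median 0.72), and Tnfrsf11b, the gene of osteoprotegerin, was 15.2-fold higher (12.6 to 18.5). Mgp was 1.54-fold higher. Of 27 transcription factors of cartilage and bone, 12 were higher and 1 lower (median 0.43). Sox9 was 23.6-fold higher and 12.4-fold without the deep cells. Runx1 was 6.61-fold higher (4.79 to 9.04), and Runx2, the main bone regulator, 10.0-fold (3.77 to 25.3) on 9 UMIs. Cytl1 was 120-fold higher (106 to 136) and 38.9-fold without the deep cells. Of 36 BMP and TGF-beta signalling genes, 5 were higher and 1 lower (median -0.18), near the value for all genes.

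Of 20 contractile smooth muscle genes, 17 were lower in Apoe-/- cluster 10 and 0 higher (median log2 ratio -1.03). Without the deep cells 11 were lower (median -0.66). Acta2 was 2.11-fold lower with all cells and 1.64-fold lower without the deep ones, and Myh11 2.21-fold and 1.39-fold lower, the last short of the rule. Hspb6, a small heat shock protein of smooth muscle, had the greatest fold of the genes ranked as lower, 3.64. Of 16 modulated-state genes, 13 were higher and 0 lower (median 3.19), and 13 were higher without the deep cells (median 2.45). All 12 measured macrophage genes were also higher (median 3.76), as were 12 without the deep cells (median 4.36). C1qa, a complement gene of macrophages, was at 302 CPM in Apoe-/- cluster 10 against 9.46 CPM in smooth muscle cells and 2363 CPM in macrophages. Macrophage genes summed to 1686 CPM in Apoe-/- cluster 10 (1000 UMIs, 13 of 14 genes detected), against 643 CPM in cluster 8, 116 CPM in smooth muscle cells and 25926 CPM in macrophages, and their part in the Spp1 level was not tested.

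In the EC-iDKO/Apoe-/- library the same contrast was smaller in number and of a different make-up. Of 10348 genes, 2.01% were higher and 0.715% lower in cluster 10 than in smooth muscle cells. Spp1 was 117-fold higher (92.8 to 148) in cluster 10, Lum 22.3-fold, Timp1, an inhibitor of matrix proteases, 11.8-fold and Mgp 2.02-fold. Of 16 modulated-state genes, 9 were higher and 0 lower (median log2 ratio 1.36). Of 20 contractile genes, 5 were lower and 0 higher (median -0.54). Ibsp had a ratio of 3.75 (0.0908 to 23.2) on 1 UMI, which is too few to show a difference. What EC-iDKO/Apoe-/- cluster 10 shared with its Apoe-/- counterpart was thus high Spp1 and other modulated-state genes, with little cartilage transcript.

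Endothelial identity genes were low in cluster 10 of both libraries. Of 5481 genes measured against Apoe-/- endothelial cells (cluster 9), 5.05% were higher and 12.1% lower in Apoe-/- cluster 10, and the median log2 ratio was -0.21. With every ratio divided by the median ratio, 421 were higher and 405 lower, and by the fold of the mean over cells alone 920 and 1029. Of 18 endothelial identity genes, 15 were lower and 0 higher, with a median of -4.51 in which 3 genes with 0 UMIs stand at their bound. Cdh5, the cadherin of endothelial junctions, had 1 UMI in Apoe-/- cluster 10 against 50 in endothelial cells, a ratio of 0.00900 (0.000224 to 0.0525). Pecam1, the gene of CD31, stood at 52.3 CPM against 1225 CPM and was 23.4-fold lower (16.2 to 35.1). Ptprb, an endothelial phosphatase, was 67.3-fold lower (32.1 to 169). In EC-iDKO/Apoe-/- cluster 10, Cdh5 had 2 UMIs. The endothelial list summed to 902 CPM in EC-iDKO/Apoe-/- and 605 CPM in Apoe-/- cluster 10. In smooth muscle cells of those libraries it summed to 847 and 815 CPM. Cluster 10 thus held no more of it than smooth muscle in Apoe-/-, but slightly more in EC-iDKO/Apoe-/-. In that library Pecam1 was 8 of 66487 UMIs in cluster 10 and 293 of 5483286 in smooth muscle, a larger part in cluster 10. The median EC-iDKO/Apoe-/- cell held 0% endothelial UMIs in cluster 10, against 0.493% in endothelial cells.

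Cartilage genes were far above the endothelial level too. Ibsp was 88.5-fold higher (64.9 to 124) in Apoe-/- cluster 10 than in endothelial cells, Chad 25.2-fold and Spp1 27.8-fold. Cnmd was at least 10.8-fold, Col10a1 at least 10.1-fold and Col9a2 at least 9.75-fold higher, since endothelial cells had 0 UMIs of each. Of 16 cartilage matrix proteins, 14 were higher and 0 lower (median log2 ratio 3.83). Cytl1 was closer, 2.22-fold higher (2.02 to 2.46); endothelial cells stood at 1817 CPM themselves, and without the 17 deep cells the log2 ratio was -0.47, a lower level in cluster 10. Of 19 contractile genes, 1 was higher and 4 lower (median -0.37).

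Cluster 8, most of whose cells shared a cluster with those of cluster 10 at the lower resolutions, stood apart from it by genes that changed with the depth of the cells. With all cells, 5.16% of 8430 genes were higher and 8.08% lower in Apoe-/- cluster 10 (median log2 ratio -0.09). With every ratio divided by the median ratio, 566 were higher and 505 lower, and by the fold of the mean over cells alone 1604 and 1552. Without the 17 deep cells of cluster 10, 9.53% of 8078 genes were higher and 6.29% lower (median 0.02). Of the 435 and 770 genes higher in these settings, 290 were shared, and 13 were called in opposite directions. Of the 681 and 508 lower genes, 332 were shared.

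The direction of many cartilage genes depended on the deep cells. With all cells, 6 of 6 markers were higher in Apoe-/- cluster 10 than in cluster 8 (median log2 ratio 2.73). Without the deep cells, 1 was higher and 1 lower of 6 (median -0.28). Of 18 cartilage matrix proteins, 13 were higher and 0 lower with all cells (median 1.48), against 2 higher and 3 lower without the deep cells and a median of -0.27. When only cells of 5000 or more UMIs were taken in both clusters, 17 in cluster 10 and 88 in cluster 8, that median was 2.44. Ibsp was 5.80-fold higher (5.58 to 6.04) in cluster 10, at 13259 against 2284 CPM, but had a ratio of 0.833 without the deep cells. Col2a1 was 1.97-fold higher with all cells, with a ratio of 0.405 without the deep ones. Snorc was 9.45-fold higher (7.23 to 12.5), with a ratio of 0.209 without the deep cells, in which it was called lower. Chad was 7.60-fold higher (6.84 to 8.46) and 1.12-fold without the deep cells. Cytl1 was 4.75-fold higher with all cells and 1.55-fold without the deep ones. Acan was 2.64-fold higher with all cells and had a ratio of 1.48 without the deep ones, short of the rule, where 112 of its 226 UMIs in cluster 10 came from 1 cell. Its log2 ratio was -0.05 when each cell was reduced to 1000 UMIs. Cluster 8 cells of less than 5000 UMIs had Ibsp at 3260 CPM and Col2a1 at 6969 CPM, above the 1904 and 1212 CPM of such cells of cluster 10.

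Contractile genes and macrophage genes were higher, and modulated-state genes lower, in cluster 10 than in cluster 8 in either setting. Both settings kept the deep cells of cluster 8, so depth was not matched. Among Apoe-/- cells of 5000 or more UMIs, the median contractile share was lower in cluster 10, 0.551% against 1.34% in cluster 8. Among those under 5000 UMIs it was higher, 4.70% against 3.45%. Of 19 contractile genes, 14 were higher and 0 lower in Apoe-/- cluster 10 (median log2 ratio 0.74), and 17 were higher without the deep cells (median 1.24). Myh11 was 2.30-fold higher with all cells, at 2828 against 1230 CPM, and 3.66-fold without the deep ones. Of 12 macrophage genes, 10 were higher and 0 lower (median 1.58), and 11 without the deep cells (median 2.22). At matched depth this difference was small for C1qa, which stood at 401 CPM in cluster 10 cells and 363 CPM in cluster 8 cells of less than 5000 UMIs. The median share of all macrophage genes in such cells was also close, 0.188% in cluster 10 and 0.171% in cluster 8. In cells of 5000 or more UMIs it was 0.0154% and 0.00689%. Of 16 modulated smooth muscle genes, 9 were lower and 0 higher (median -0.67), and 13 were lower without the deep cells (median -1.56). Vcam1 was 10.1-fold lower (8.44 to 12.1) in cluster 10, at 218 against 2189 CPM, and Timp1 5.65-fold lower (4.75 to 6.78). Mgp was 3.11-fold and Lum 2.22-fold lower. Thbs1, a matricellular protein, was 10.6-fold lower (8.17 to 14.1), and Slurp1 had 2 UMIs in cluster 10 against 204 in cluster 8, a ratio of 0.0251 (0.00302 to 0.0920). Of 14 fibrillar and basement membrane collagens, 8 were lower and 0 higher (median -0.70), and of 9 fibroblast genes 6 were lower and 0 higher (median -1.52).

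In the EC-iDKO/Apoe-/- library, 4.44% of 2252 genes were higher and 5.6% lower in cluster 10 than in cluster 8. Of 17 contractile genes, 11 were higher and 0 lower in that library (median log2 ratio 0.73). Of 14 modulated-state genes, 0 were higher and 9 lower (median -0.75), and of 5 fibroblast genes 4 were lower (median -1.91). Acta2 was 2.45-fold higher, and Vcam1 4.17-fold, Timp1 4.32-fold and Lum 4.07-fold lower. The contractile, modulated and fibroblast lists therefore lay on the same side of cluster 8 in both libraries. The markers of cluster 10 could not be compared in EC-iDKO/Apoe-/-, where 0 of 6 reached 20 UMIs over both clusters.

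**Figure D4:**
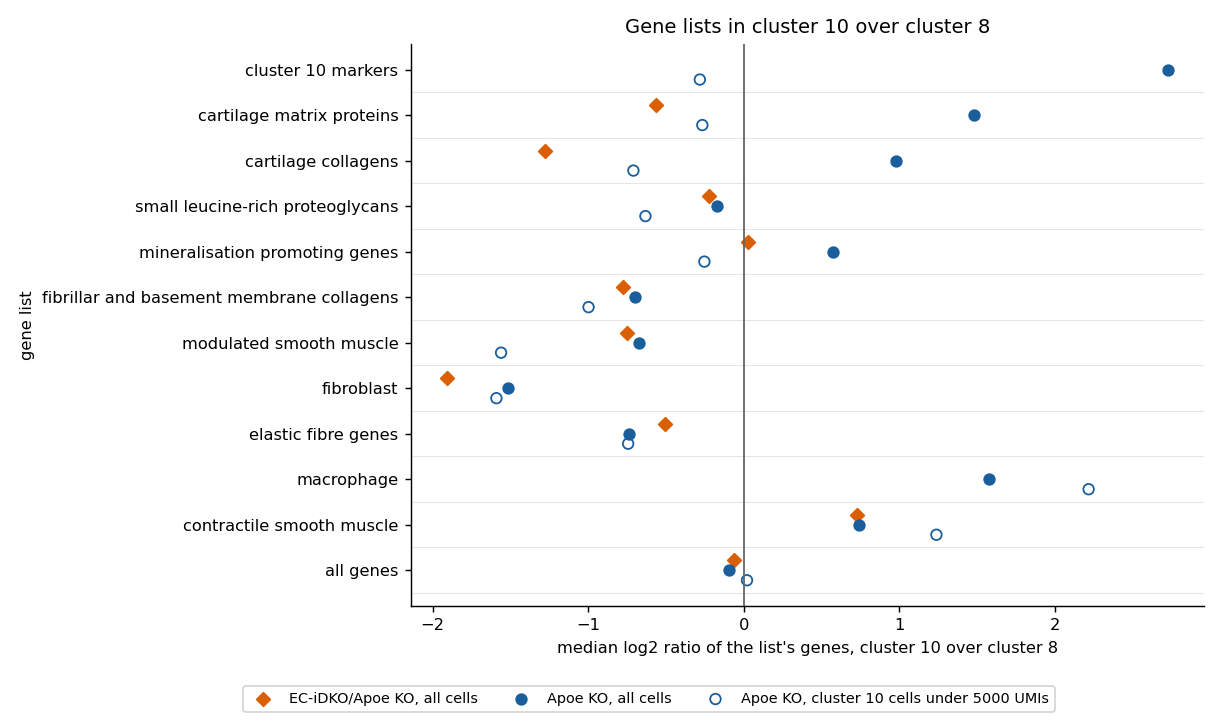
Median log2 CPM ratio of cluster 10 over cluster 8 for gene lists, with diamonds for EC-iDKO/Apoe-/-, filled circles for all Apoe-/- cells and open circles for Apoe-/- cluster 10 without cells of 5000 or more UMIs. In Apoe-/-, cartilage lists lie right of 0 with all cells and left of it without the deep cells (matrix proteins 1.48 and -0.27). In EC-iDKO/Apoe-/-, cartilage collagens lie at -1.28 on few measured genes. Contractile genes stay right of 0 and modulated-state genes left of 0 for each symbol.

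Between the genotypes, EC-iDKO/Apoe-/- cells of cluster 10 held far fewer cartilage, matrix and macrophage transcripts than Apoe-/- cells, and more of Mgp, Vcam1 and Fth1. Of 4379 genes, 7.7% were higher and 4.52% lower in EC-iDKO/Apoe-/- (median log2 ratio 0.06). By the fold of the mean over cells alone, 916 were higher and 1234 lower. With the Apoe-/- cells of 5000 or more UMIs left out, 6.29% of 3083 genes were higher and 7.43% lower (median -0.12). Of the 198 and 229 genes lower in these settings, 123 were shared, and of the 337 and 194 higher genes, 162. Genotype, library and depth cannot be told apart here. The levels are sums over all cells of the cluster, so they fall both with fewer cells that hold a transcript and with less of it in each, and the amount per positive cell was not compared.

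Of 15 cartilage matrix proteins, 14 were lower and 0 higher in EC-iDKO/Apoe-/- cluster 10 (median log2 ratio -3.54, in which 6 genes stand at their bound). Without the deep cells, 9 of 11 were lower (median -2.68). All 6 markers were lower, with a median of -3.14 that rests on 4 genes at their bound. Ibsp had 1 UMI in EC-iDKO/Apoe-/- and 7864 in Apoe-/-, a ratio of 0.00113 (2.87e-05 to 0.00632), and a ratio of 0.0079 against the 147 shallower Apoe-/- cells. Chad, with 0 UMIs in EC-iDKO/Apoe-/- and 1397 in Apoe-/-, was at least 52.2-fold lower. Acan, with 0 and 766 UMIs, was at least 28.6-fold lower, and Sox9, with 0 and 247, at least 9.23-fold lower. Fmod, a collagen-binding proteoglycan, had 0 UMIs in EC-iDKO/Apoe-/- and 348 in Apoe-/-. Sparc was 15.6-fold lower (13.4 to 18.4) and Dcn 17.3-fold lower (11.9 to 26.0), with 28 UMIs in EC-iDKO/Apoe-/- against 4310 in Apoe-/-. Col1a1, the main bone and scar collagen, was 14.4-fold lower (10.4 to 20.6). Spp1 was lower by much less, 2.71-fold (2.33 to 3.16), with a ratio of 0.630 against the shallower Apoe-/- cells. Cytl1 was 11.7-fold lower (7.76 to 18.4), with a ratio of 0.263 against those cells.

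Other lists moved between the genotypes as well. Of 11 macrophage genes, 7 were lower and 0 higher in EC-iDKO/Apoe-/- cluster 10, with a median log2 ratio of -1.94 in which 7 genes stand at their bound; over cells of 1000 or more UMIs with a mitochondrial share below 10%, of which EC-iDKO/Apoe-/- had 10, it was 0.08. The list summed to 120 CPM (8 UMIs, 4 of 14 genes detected) in EC-iDKO/Apoe-/-, against 1686 CPM in Apoe-/-, and to 6719 and 25926 CPM in macrophages of the same libraries. Of 13 heat shock genes, 9 were lower and 1 higher (median -0.93). Hspa1a, an inducible chaperone gene with a near-identical copy in Hspa1b, stood at 346 CPM in EC-iDKO/Apoe-/- against 1833 CPM in Apoe-/-, and at 455 against 1709 CPM in smooth muscle cells. The lower level of this gene in EC-iDKO/Apoe-/- was thus seen in smooth muscle cells as well.

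Of 18 contractile genes, 4 were higher and 0 lower in EC-iDKO/Apoe-/- cluster 10 (median log2 ratio 0.55). Against the shallower Apoe-/- cells, 1 of 18 was higher (median 0.01). Acta2, 1.64-fold higher with all cells, was 1.27-fold without the deep ones and no longer called. Mgp was 1.98-fold higher (1.87 to 2.09) in EC-iDKO/Apoe-/- and 2.02-fold without the deep Apoe-/- cells, so this difference did not rest on them. In smooth muscle cells Mgp was also a larger part of all UMIs in EC-iDKO/Apoe-/-, 61294 of 5483286, against 63465 of 8564351 in Apoe-/-. In cluster 8 the parts were close, 7382 of 203822 in EC-iDKO/Apoe-/- and 53832 of 1520289 in Apoe-/-. Vcam1 was 3.32-fold higher (2.33 to 4.66) in cluster 10 and 3.41-fold without the deep Apoe-/- cells. Ogn, an inhibitor of calcification among the small proteoglycans, was 2.42-fold higher. Fth1, the heavy chain of ferritin that stores iron, was 3.33-fold higher (3.12 to 3.54), at 20064 against 6031 CPM. Its level was also higher in EC-iDKO/Apoe-/- in cluster 8, 24669 against 8877 CPM, and in smooth muscle cells, 14802 against 7197 CPM. Lars2, a mitochondrial leucyl-tRNA synthetase gene, had the greatest ratio of the ranked genes, 5.16 (3.34 to 7.85). It rested on 37 UMIs in EC-iDKO/Apoe-/- and 64 in Apoe-/-, and its levels in other populations are not given here.

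**Figure D5:**
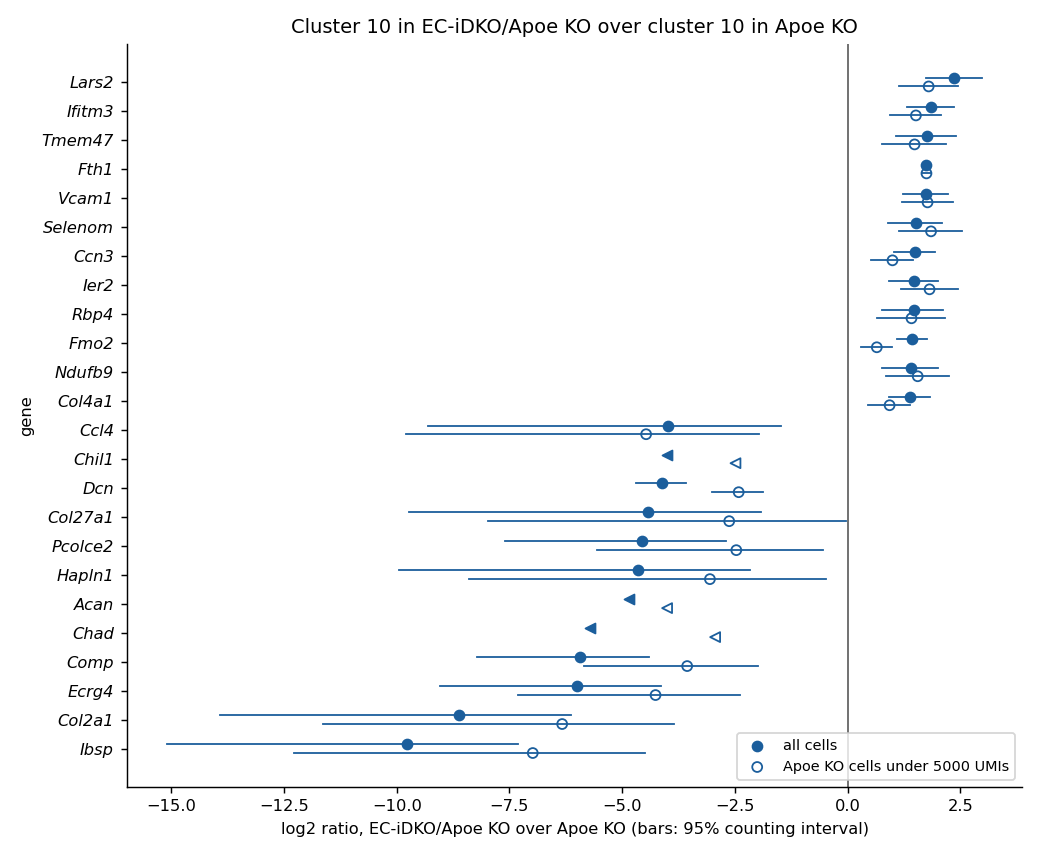
Log2 ratio of EC-iDKO/Apoe-/- over Apoe-/- in cluster 10 for the 12 highest and 12 lowest ranked genes, with bars for the 95% counting interval. Triangles mark genes with 0 UMIs in EC-iDKO/Apoe-/-, whose ratio is an upper bound, and open symbols Apoe-/- cells of less than 5000 UMIs. Cartilage genes lie far left of 0 (Ibsp, a ratio of 0.00113). Vcam1 lies right of 0 with either set of Apoe-/- cells, and Fth1 with all of them.

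Among the Apoe-/- cells of cluster 10, cells with more cartilage transcript had less contractile transcript. Over the 158 cells that reached 1000 UMIs, all reduced to that depth, the rank correlation of the summed cartilage and contractile genes was -0.64. It was 0.52 between cartilage genes and Spp1, -0.37 between Spp1 and contractile genes, and -0.30 between cartilage and macrophage genes. These are descriptions over cells of 1 library, in which sums compete for the same number of UMIs, and cells are not replicates. At 500 UMIs per cell, over all 164 cells, the first 3 were -0.51, 0.46 and -0.37. Over the 90 EC-iDKO/Apoe-/- cells at 500 UMIs, the same values were -0.03, 0.00 and -0.01. In that library the sum of cartilage genes was 0 in most cells, which leaves little to rank.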

How the data were processed

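Single-cell libraries (10x, 3' tags) of digested aortas were analysed, 1 for EC-iDKO/Apoe-/- and 1 for Apoe-/-. The authors deposited raw counts (UMIs of each gene in each cell) made with Cell Ranger and Seurat on the mm10 build, per the submitters' processing notes; the sources used here give neither versions nor annotation. The authors' mitochondrial ratio is a fraction of a cell's UMIs. Their deposited ratio of genes to UMIs and cell cycle scores were not used. Class and cluster numbers are the authors'. The deposited table held 10345 cell rows, with no cell under 500 UMIs; 2428 Apoe-/- barcodes stood in it in 2 identical copies, and each was counted once. No doublets were removed here.

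UMIs were added up per population and divided by their total (CPM). Smooth muscle was the SMC class without cluster 15, whose leading genes held adipocyte markers; endothelial cells were cluster 9 and macrophages cluster 13. CPM carry exact Poisson, ratios exact conditional binomial and shares Clopper-Pearson intervals, at 95%. For a gene without UMIs in a population, 3 UMIs stood in as the floor. Genes with at least 20 UMIs over both populations counted as measured. No p-value was made, since cells are not replicates. In cell correlations and shares, each cell was thinned to 1000 or 500 UMIs with a fixed seed.

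The 41 gene lists and the members were chosen with earlier results of these data known. Named genes were the 6 markers, the 20 genes of highest CPM, the 12 highest and 12 lowest ratios of each comparison with at least 100 UMIs and a mean of at least 50 CPM, and members of the lists. The endothelial list counts 21 genes, of which those measured are given. C1qa, Epn1, Epn2, Hspa1a and the division of the 17 deep cells were chosen after their values were seen. Alternatives were thinning, depth and mitochondrial filters, means over cells, other scalings, folds, count minimums and populations. Those chosen after seeing the data leave out the cells of 5000 or more UMIs or the deepest cell, thin to 500 UMIs, or keep deep cells in both clusters or cells under 2500 UMIs in both libraries. Promoters are from RefSeq on GRCm38.p6. Python 3.11.15, numpy 2.4.6, scipy 1.17.1, pandas 2.3.3 and matplotlib 3.10.9 were used.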

Additional observations from a re-analysis of the deposited data

Results flagged for a closer look

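Some values lay on opposite sides of 0 in the 2 libraries. The median log2 ratio of cluster 10 over cluster 8 for cartilage collagens was -1.28 in EC-iDKO/Apoe-/-, over 3 measured genes, against 0.98 in Apoe-/-, over 11. The median for cartilage matrix proteins over endothelial cells was -1.36 in EC-iDKO/Apoe-/-, over 4 measured genes, against 3.83 in Apoe-/-, over 16. Cytl1 over endothelial cells had a log2 ratio of -3.32 in EC-iDKO/Apoe-/- and 1.15 in Apoe-/-. Hspb6, a small heat shock protein of smooth muscle, had 1.51 in EC-iDKO/Apoe-/- and -1.02 in Apoe-/- over the same cells, and the basement membrane collagen gene Col4a1 had 0.91 and -0.85. These differences were not tested, because there was 1 library per genotype. The libraries also differed in depth, whose part in these values was not tested.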

How the results depend on the processing

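With 1 library per genotype, the alternatives show how values depend on cells and scaling, not on animals. No paired analysis was possible because each genotype had 1 library. Of the counts of genes, the medians for cartilage matrix proteins and the shares of cells, 74 values stayed within their limits under an alternative, 73 moved beyond them and 2 changed sign; of all other values, 2382 stayed, 914 moved and 65 changed sign. The medians for cartilage matrix proteins over smooth muscle, over endothelial cells and between genotypes kept their sign in every alternative. Between genotypes at 1000 UMIs per cell, the median of -1.003 rested on 10 EC-iDKO/Apoe-/- cells. It equals the value of Acan, whose 0 UMIs there were replaced by the floor of 3, so it is a bound and not a measured level. Most changes of sign were cartilage genes of cluster 10 over cluster 8; their cause was not tested. EC-iDKO/Apoe-/- depth limits every value of low genes.

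Fewer UMIs leave fewer genes called. At 1000 UMIs per cell, 363 genes were higher and 203 lower over smooth muscle, with a median of 3.69 for cartilage matrix proteins. Over endothelial cells these values were 111, 124 and 2.68. Between genotypes, on 10 EC-iDKO/Apoe-/- cells, they were 54, 49 and -1.003, the last a bound, with the small proteoglycan median at 0.14. Over cluster 8 they were 175, 153 and -0.13, with cartilage collagens at -0.86, Col11a1 at -2.06, Col2a1 at -1.39, Acan at -0.046, Comp at -0.33, Mia at -0.33, Chil1 at -0.40 and Sparc at -0.13. At 500 UMIs per cell, the values over smooth muscle were 219, 112 and 3.31, with Thbs1 at -0.084. They were 71, 71 and 2.25 over endothelial cells and 101, 105 and -2.73 between genotypes. Over cluster 8 they were 85, 78 and 0.34, with cartilage collagens at -0.65, Col2a1 at -1.10, Sox9 at -0.23, Comp at -0.34, Chil1 at -0.53, Sparc at -0.093 and Ecrg4 at -0.055.

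As a mean over cells, called by fold alone, 2113 genes were higher and 2259 lower over smooth muscle, with a median of 3.45 for cartilage matrix proteins. The values were 920, 1029 and 1.68 over endothelial cells, with Snorc at -1.07, and 916, 1234 and -2.51 between genotypes, with Cnmd at 0.18. Over cluster 8 they were 1604, 1552 and 0.34, with cartilage collagens at -0.73, Omd at -0.15, Col9a2 at -0.28, Col11a1 at -1.42, Col2a1 at -1.10, Acan at -0.0100, Comp at -0.24, Chil1 at -0.45, Sparc at -0.034 and Ecrg4 at -0.070.

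Ratios divided by their median left 476 genes lower over smooth muscle, and 421 higher and 405 lower over endothelial cells. A fold of 2 left 392 lower over smooth muscle, 418 lower over endothelial cells, and 236 higher and 405 lower over cluster 8. A minimum of 100 UMIs left 488 higher over smooth muscle, 117 higher and 172 lower over endothelial cells, 210 and 394 over cluster 8, and 129 and 126 between genotypes.

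Without the 5% of cells with most UMIs, 340 genes were lower over smooth muscle, with a median of 3.23 for cartilage matrix proteins. Over endothelial cells 388 were lower, with a median of 2.54 and Snorc at -1.16, and between genotypes 202 were higher, with a median of -2.70. Over cluster 8, 694 were higher, with a matrix protein median of 0.063, markers at -0.42, cartilage collagens at -0.38, Snorc at -1.08, Alpl at -0.034, Ibsp at -0.31, Omd at -1.44, Col9a2 at -0.54, Col11a1 at -3.01, Cnmd at -1.27, Col2a1 at -0.21, Sox9 at -0.015, Comp at -0.44, Mia at -0.15, Chil1 at -0.94 and Sparc at -0.28.

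Without the cells of 5000 or more UMIs, 295 genes were lower over smooth muscle, with a median of 2.34 for cartilage matrix proteins. Over endothelial cells 346 were lower, with a median of 2.78 and Cytl1 at -0.47, and between genotypes 194 were higher, with a median of -2.68. Over cluster 8, 770 were higher, with matrix proteins at -0.27, markers at -0.28, cartilage collagens at -0.71, Scrg1 at -0.89, Snorc at -2.26, Ibsp at -0.26, Omd at -1.57, Col9a2 at -0.30, Col11a1 at -2.77, Cnmd at -1.04, Col2a1 at -1.30, Sox9 at -0.15, Comp at -0.83, Mia at -0.080, Chil1 at -0.74, Sparc at -0.79 and Ecrg4 at -0.51.

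With only cells of 5000 or more UMIs in both clusters, 254 genes were higher and 1059 lower over cluster 8, with a median of 2.44 for cartilage matrix proteins and Lars2 at -0.043. In cells of 1000 or more UMIs with a mitochondrial share below 10%, cluster 10 was 0.563% of EC-iDKO/Apoe-/- cells. Between genotypes 162 genes were then higher and 73 lower, with medians of -1.33 for matrix proteins, 0.19 for mineralisation promoting genes and 0.081 for macrophage genes. In cells under 2500 UMIs in both libraries, 163 were higher, with a matrix protein median of -2.40.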

Other observations

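Lists outside cartilage and muscle were also counted between cluster 10 and cluster 8 in Apoe-/-, where 5.16% of all genes were higher and 8.08% lower. Of 15 elastic fibre genes, 0 were higher and 9 lower in cluster 10 (median log2 ratio -0.74). Of 16 matrix proteases and their inhibitors, 0 were higher and 9 lower (median -0.68). Of 10 inflammatory cytokines and chemokines, 3 were higher and 7 lower (median -1.39). Of 20 genes of hypoxia and glycolysis, 0 were higher and 3 lower (median -0.23). Of 20 ER chaperone genes, 0 were higher and 2 lower (median -0.28), near the share of all genes.

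Set against all other cells of its library, EC-iDKO/Apoe-/- cluster 10 was led by Spp1, at 2692 against 170 CPM, then Serpina3n, an acute-phase protease inhibitor (9 UMIs), and Lum (23 UMIs). The 147 Apoe-/- cells of less than 5000 UMIs were led by Acan, at 724 against 96.1 CPM with 112 of its 226 UMIs in 1 cell, Cytl1, at 1314 against 187 CPM, and Hapln1, a link protein of aggrecan, at 125 against 17.8 CPM. These genes formed the clusters, so the values are a description.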
